A study of Mus musculus with 10 samples.

Results

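The cytosines described here are the most deeply read ones on the autosomes of the mouse outside ribosomal DNA, in a data set on the DNA methylation of embryos. They were chosen by read depth: of the 2391795 CpG cytosines in the deposited count table, the 0.1% with the highest coverage summed over 10 libraries were taken, and of these the ones on chromosomes 1 to 19 were kept, without the ribosomal DNA copy on chromosome 17 and 1 window in the gene Cmss1 on chromosome 16. The limit fell at 2247 reads, and 1459 cytosines (0.0610% of the table) were members. The samples were whole mouse embryos at embryonic day 7.5, 5 labelled as controls and 5 labelled as arsenic, measured by reduced representation bisulfite sequencing (RRBS), an assay that reads mainly fragments rich in CpG, cut out with a restriction enzyme, after bisulfite has turned unmethylated cytosines into a base read as T. The labels count both groups from 1 to 5 and the table numbers its libraries from 1 to 10. The group of each library is thus unknown here, and the groups labelled control and arsenic were not compared. The labels also carry an experiment number, and the name of the deposited table carries a generation label for the embryos. Arsenic is therefore used here as a group label, not as a stated exposure of the embryos themselves. Not given in the sources used here: strain, sex, the dose and time of arsenic, and which generation was exposed. All values below describe the 10 libraries by their numbers in the table. A methylation level is the methylated read count over the coverage of a cytosine, pooled over the libraries unless a library is named.

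Repeats are stretches of DNA with many near-identical copies, such as the satellite arrays beside the centromeres, the tandem arrays of 5S ribosomal RNA genes and clusters of transfer RNA (tRNA) genes. In a reference genome a repeat is often represented by fewer copies than the cell holds, and reads of the missing copies can then pile up on the copies that are present. Satellite arrays are known as heavily methylated in most mammalian cells, while promoters of expressed genes with many CpGs are known for low methylation, and embryos at the start of gastrulation are regaining methylation that was lost before implantation. No repeat annotation or genome sequence was used here, so whether each member lies in a repeat was not tested, and the members are called by their depth.

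RefSeq promoter sequences of the GRCm38.p6 assembly, which has the coordinates of mm10, were at hand for 18 members at 6 genes. All 29 bases that could be checked fit the strand of the table. The sequences of 4 of these genes are shown because they place members at gene starts of 4 different levels. They are printed 5′ to 3′ in lower case on the strand of the gene, and capitals mark the cytosines that are members, all on that same strand.
Gm40371, chr6:47651271-47651570, minus strand: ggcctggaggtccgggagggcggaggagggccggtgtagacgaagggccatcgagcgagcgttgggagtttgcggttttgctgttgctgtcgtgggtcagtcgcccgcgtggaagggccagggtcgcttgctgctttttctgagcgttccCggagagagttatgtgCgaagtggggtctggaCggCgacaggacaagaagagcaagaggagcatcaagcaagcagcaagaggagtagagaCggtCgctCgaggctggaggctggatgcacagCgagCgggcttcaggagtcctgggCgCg
Yipf4, chr17:74489243-74489397, plus strand: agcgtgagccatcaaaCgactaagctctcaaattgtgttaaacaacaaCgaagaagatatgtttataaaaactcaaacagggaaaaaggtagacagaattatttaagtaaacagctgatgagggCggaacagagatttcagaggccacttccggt
LOC115490388, chr6:3183121-3183165, plus strand: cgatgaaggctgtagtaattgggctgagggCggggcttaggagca
Gm46428, chr13:66519511-66519571, plus strand: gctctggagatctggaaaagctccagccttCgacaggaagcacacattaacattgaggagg
The promoter of the long noncoding RNA gene Gm40371 held 11 members, 4 inside the annotated gene and 7 from 2 to 100 bp before its start, with 25 CG in its 300 bases, where the median autosomal promoter of the table has 7, and with 3 copies of CCGG, a motif that 53.5% of the 31396 autosomal promoters hold at least once. Their mean level was 2.47%, and 10 of the 11 were at 0.487 to 2.59%. The exception was the member most upstream in the gene's direction, at 13.96%. Yipf4, which encodes a membrane protein of the Golgi, had 3 members with a mean of 0.711%. The member in the promoter of LOC115490388 was at 8.28% and that of Gm46428 at 17.9%. The 61 bases shown for Gm46428 shared at least 30 bases in a row with 10 other promoters of the table, and those of LOC115490388 with 1 other. The sequences of Gm40371 and Yipf4 shared none. Cflar, an inhibitor of caspase-8 in the death receptor pathway, had 1 member at 11.01%. At Tfpt, 1 member on the strand opposite to the gene had 0 methylated of 2257 reads, which allows a level of up to 0.133%, counting error only.

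The members formed 510 regions when neighbours within 10 kb were joined. Of these regions 225 held 1 member, 71 held 5 or more, and 19 held 10 or more with 373 members between them. Depth was very uneven. The median member had 2617 reads summed over the libraries, against 364 for all cytosines of the table, and the deepest had 4343133, which is 11932 times that median. The lowest coverage of any member in any library was 111 reads. Members took 3.56% of all coverage, with 2.86 to 3.92% across libraries whose total coverage was 94583116 to 127102232. One region on chromosome 2 held 83.7% of the members' coverage. The last 20 members inside the limit had 2247 to 2252 reads and levels of 0.4002 to 81.1% with a median of 53.7%. The first 20 outside had 2240 to 2246 reads and 13.0 to 82.4% with a median of 51.2%.

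The mean level over members was 50.2%, and the 10 libraries lay between 48.9% in library 1 and 51.6% in library 4, with a median of 50.4%. The 2343986 other autosomal cytosines averaged 41.6%, from 40.3% in library 1 to 42.9% in library 2. Members were higher in 10 of 10 libraries, by 7.95 to 8.88 points. The shape of the distribution differed more than the mean. Only 7.54% of members were under 5%, against 25.1% of the other cytosines, while 71.4% of members and 56.6% of the others lay at 20 to 80%. Levels over 80% were about as frequent in both sets, at 8.64 and 10.01%. The highest member was at 94.8%.

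**Figure D1:**
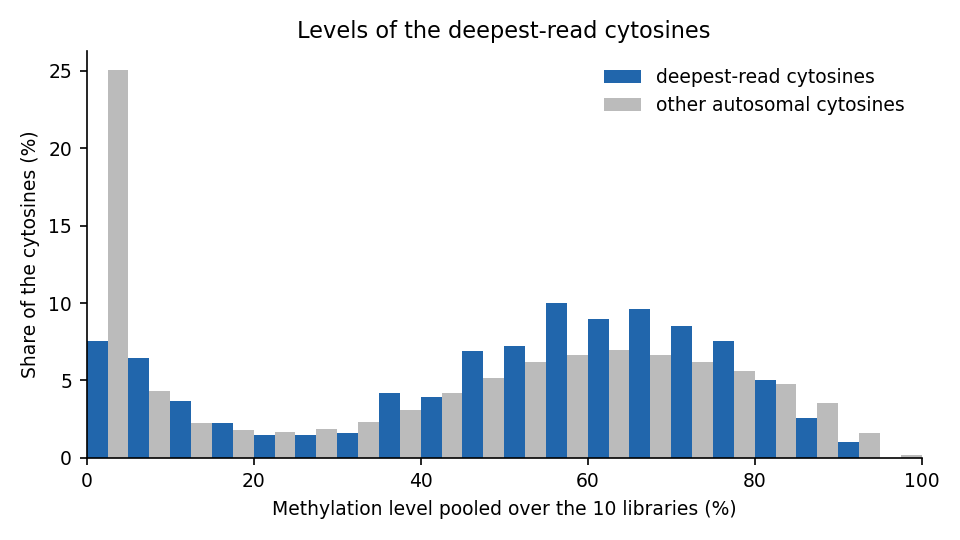
Share of cytosines (y axis, %) in each class of 5 points of pooled methylation level (x axis, %) for the 1459 deepest-read cytosines (blue) and the 2343986 other autosomal cytosines (grey). The grey bar under 5% stands at 25.1% and the blue one at 7.54%, and blue bars are the taller ones from 5 to 20%, from 35 to 40% and from 45 to 85%.

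Depth and level were not related in one direction. The 916 members under 3000 reads had a median level of 57.7%, the 303 from 3000 to under 5000 reads 55.5%, and the 121 from 5000 to under 10000 reads 59.0%. The 96 members from 10000 to under 100000 reads had a lower median of 38.2%, and 45.8% of them were under 20%. They came from 13 regions, so few loci set these values. The 23 members over 100000 reads all lay in the chromosome 2 region and had a median of 53.4%.

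**Figure D2:**
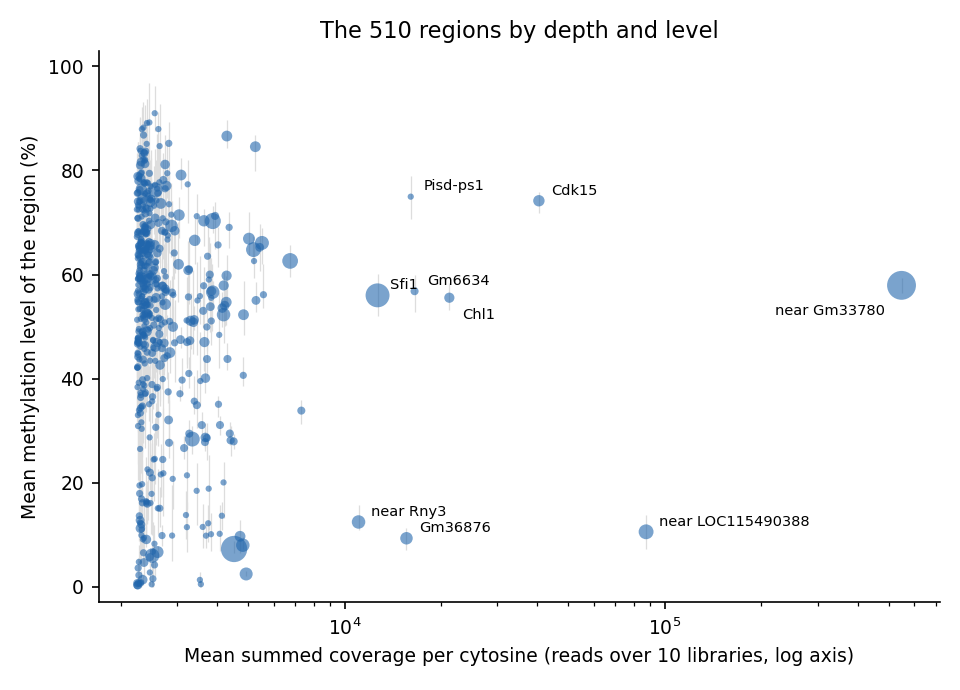
Each of the 510 regions by the mean summed coverage of its members (x axis, reads over 10 libraries, log axis) and its mean level (y axis, %), with point size growing with the number of members and bars spanning the lowest to the highest library. Regions over 10000 reads carry the name of the gene that holds them or lies nearest, and they sit in a low set (near LOC115490388 at 10.6%, Gm36876 at 9.33%, near Rny3 at 12.5%) and a set above 50% (near Gm33780, Cdk15, Chl1, Sfi1, Gm6634, Pisd-ps1).

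Members lay farther from genes than other cytosines. Inside annotated genes were 46.5% of members and 68.3% of the others, and within 1000 bp of a gene end 20.2 and 31.3%. The median distance to the nearest gene end was 8095 bp for members and 3899 bp for the others. The first 1 Mb of each chromosome's rows, which on mouse chromosomes is the end beside the centromere, held 6.51% of members (95, in 15 regions on 8 chromosomes) but 0.780% of the others. Most of these 95 lay in few regions, with 42 and 12 in Sfi1 on chromosome 11 and 15 near LOC115490388 on chromosome 6. Cytosines far from gene ends had nearly equal levels in both sets, 53.6% in members and 53.3% in the others. Near gene ends members were at 36.9% and the others at 16.1%.

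The deepest region was chr2:98662265-98667256, 35343 bp from the nearest gene, the long noncoding RNA gene Gm33780. This interval of mm10 is known as a copy of the major satellite, the repeat that makes up the blocks of heterochromatin beside mouse centromeres. It held 62 members among 93 cytosines of the table, with a mean level of 57.9%. Libraries 1 to 10 in order were at 57.9, 58.6, 57.6, 59.4, 57.8, 57.9, 57.5, 58.9, 57.6 and 56.5%. The range over libraries was thus 2.93 points, with library 10 lowest and library 4 highest. The deepest cytosine of the table, at position 98666394 on the minus strand, had 312996 to 552717 reads per library and a level of 59.6% (Wilson 95% interval 59.5 to 59.6%), from 57.5% in library 1 to 61.2% in library 2. The spread between libraries was wider than this interval. Weighted by reads, the region was at 49.4%, since some of its deepest cytosines were among its lowest.

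Within this region the cytosines differed from each other much more than the libraries did. The members fell into 3 stretches with mean levels of 50.5% (21 members), 53.7% (8) and 63.7% (33). The 3 lowest cytosines were all on the minus strand. Position 98662557 was at 2.04% (libraries 1.97 to 2.11%), position 98662602 at 4.93% and position 98666385 at 5.09% (4.61 to 5.66%). The 3 highest were on the plus strand, at 98667091 with 82.9%, at 98667149 with 80.9% and at 98666262 with 78.4%. Low cytosines had close neighbours of ordinary level. In the first stretch, 9 bp past the cytosine at 2.04%, the next minus-strand cytosine was at 53.4%, and in the last stretch, 9 bp past the one at 5.09%, the deepest cytosine of the table was at 59.6%. A distance of 9 bp was also the most common one between plus-strand members of the region, found in 5 pairs, followed by 60, 120, 251, 485 and 2507 bp with 4 pairs each.

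**Figure D3:**
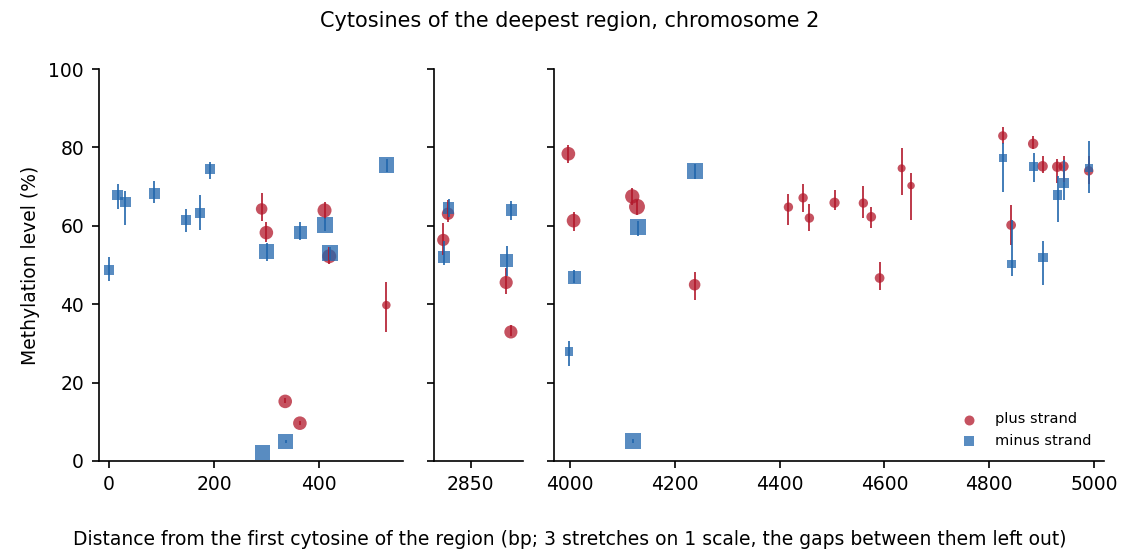
Methylation level (y axis, %) of the 62 members of the chromosome 2 region by distance from the first of them (x axis, bp; 3 stretches), with red circles for the plus strand, blue squares for the minus strand, larger marks for more reads, and bars from the lowest to the highest library. Cytosines at 2.04 to 15.2% stand near others above 50%, and the bars are short beside these gaps.

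Both cytosines of a CpG are usually methylated alike, because the sequence reads the same on both strands and the maintenance methyltransferase Dnmt1 copies the mark to the new strand. In the chromosome 2 region the levels read on the 2 strands often differed. Of its 23 CpGs with members on both strands, 8 (34.8%) differed by more than 20 points, with a median difference of 7.16 points. Among the 100 such CpGs of other regions 3 (3.00%) did, with a median of 1.95 points, and among 744377 other autosomal CpGs read on both strands 1.84% did, with a median of 2.20 points. Across CpGs, which are not independent replicates, plus-strand and minus-strand levels had a Pearson r of 0.174 over the 23, 0.942 over the 100 and 0.959 over the others. The largest gap was at 98666384 and 98666385, with 67.5% on the plus and 5.09% on the minus strand. At 98662556 and 98662557 the plus strand was at 64.3% and the minus strand at 2.04%. The reverse was seen at 98662629 and 98662630, with 9.63% on the plus and 58.3% on the minus strand. In all 8 the ranges of the strands over the 10 libraries did not overlap. The strands of these 8 CpGs also differed in depth, by 2.32 to 428 times, and the deeper strand was the lower one in 4 and the higher one in 4. The part that this depth difference has in the difference of levels was not tested. A T from a copy with another base is counted as unmethylated, and reads of many copies may be placed on 1 copy. Whether the levels of the 2 strands come from the same copies was not tested.

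**Figure D4:**
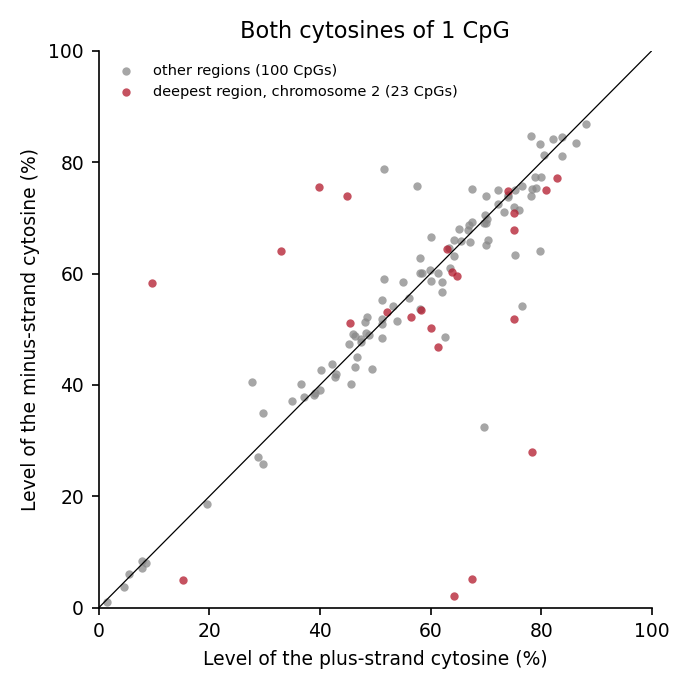
Level of the plus-strand cytosine (x axis, %) against that of the minus-strand cytosine (y axis, %) for the 123 CpGs with members on both strands, in the chromosome 2 region (red, 23) and in other regions (grey, 100), with the line of equal levels. Grey points follow the line with 3 more than 20 points off it, and 8 of the red points lie more than 20 points off.

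A further 728 CpGs had a member on 1 strand and a cytosine below the depth limit on the other. Where the member was less than 2 times deeper, 0 of 192 CpGs differed by more than 20 points. From 2 to under 10 times, 18 of 471 (3.82%) did. At 10 times or more, 25 of 65 (38.5%) did, and the member strand was higher in 29 of the 65 and lower in 36. Since 14 of the 25 came from 1 region, these CpGs are not independent of each other. The other 11 were spread over 10 regions. One of them, at position 89870826 of chromosome 2, had 1.33% on the member strand with 3534 reads and 80.5% on the other with 195 reads.

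The region with those 14 CpGs was chr6:3201422-3201557, 2911 bp from LOC115490388. Its 15 members, all on the plus strand, averaged 87357 reads and a level of 10.6%, with cytosines from 7.76 to 16.3%. On the minus strand 14 of these CpGs had 357 to 696 reads and a mean level of 67.8%, from 55.5 to 81.2%. The minus strand was higher in 14 of 14, by 46.5 to 64.9 points. A similar imbalance of depth did not always come with a gap. At chr1:59347232-59347474, in the gene of the cyclin-dependent kinase Cdk15, 8 plus-strand members of 60.8 to 82.9% averaged 40424 reads, and the minus strand of the same CpGs had 285 to 355 reads. There the mean levels of the strands were 74.2 and 79.4%, and the gaps were 0.246 to 12.4 points.

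Low levels at great depth were shared by few regions. Libraries 1 to 10 of the chromosome 6 region near LOC115490388 were at 10.6, 10.5, 8.04, 11.8, 12.2, 13.9, 7.20, 12.4, 10.2 and 8.65%. Libraries 4, 5, 6 and 8 were the highest and library 7 the lowest. The region chr11:109011776-109011871, in the long noncoding RNA gene Gm36876, had 10 members on both strands with 15604 reads on average and a level of 9.33%. Its libraries were at 8.01, 9.53, 7.13, 9.99, 11.03, 11.3, 7.55, 10.5, 8.79 and 9.69%, and the same 4 libraries were the highest. This order was not shared by all deep regions of low level, nor was it found in low regions alone. In the region near Rny3, at 12.5%, library 1 was highest (15.8%) and libraries 4, 5, 6 and 8 lay between 11.8 and 13.1%, among the others. In a region of 70.3% on chromosome 5, chr5:15061393-15061672, the same 4 libraries were the highest, at 71.5 to 73.2% against 68.0 to 70.8%. The ribosomal DNA copy on chromosome 17, which the selection left out, had 11.9% on average over its 725 cytosines past the limit, from 8.37% in library 7 to 15.4% in library 6. Its levels also put libraries 4, 5, 6 and 8 above the others, with a gap of 26.7% of the range between them and the other 6, so no correlation over all 10 libraries is given. Within the other 6 libraries the chromosome 6 region followed the ribosomal DNA with Pearson r = 0.896 (exact permutation p = 0.00278, adjusted over 30 regions 0.0833) and Spearman rho = 0.943 (exact p = 0.0167, adjusted 0.50), which does not pass the threshold after adjustment. Without the 2 libraries farthest from the median r was 0.900 over the remaining 4. The Gm36876 region had r = 0.560 (exact permutation p = 0.247, adjusted 0.915). Of the 30 named regions, chosen by number of members, depth, level and range over libraries, 0 had an adjusted p under 0.05 in this test. With 6 libraries the exact test has few possible orders, so 1 region alone could hardly pass after adjustment over 30 regions. No conclusion is drawn from this count.

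**Figure D5:**
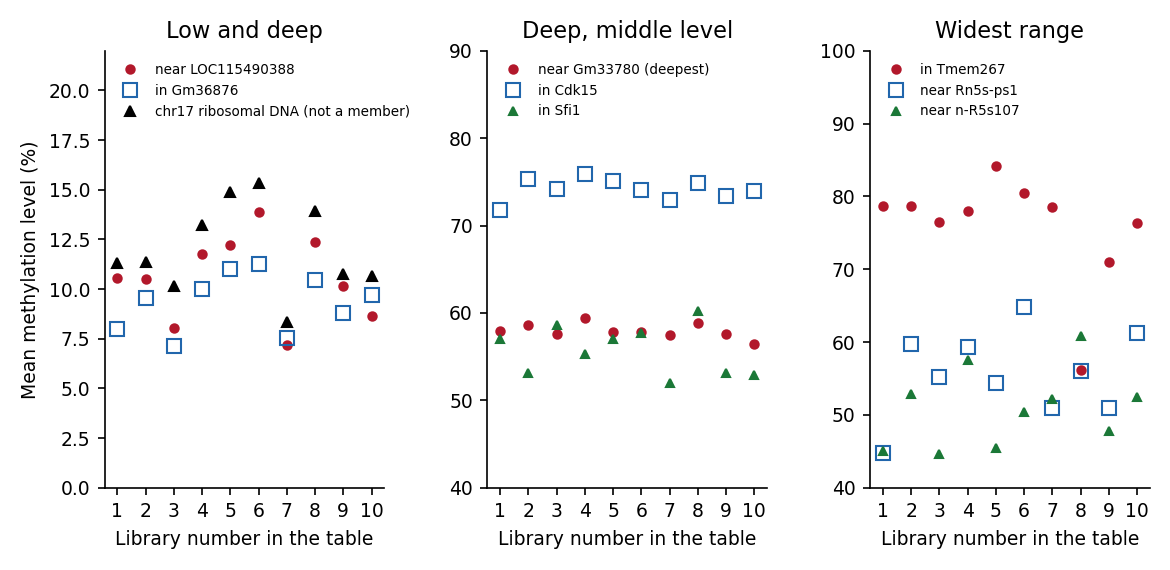
Mean level (y axis, %) in each of the 10 libraries (x axis, the table's own numbers, which have no order) for 2 low and deep regions with the chromosome 17 ribosomal DNA, for 3 deep regions of middle level, and for 3 of the regions with the widest range. Libraries 4, 5, 6 and 8 are highest in each series of the left panel, and library 8 of the Tmem267 region stands at 56.1% while the others lie at 71.0% or more.

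Small RNA genes were near several large regions, and their levels were far apart. The region chr1:171063993-171078128, a cluster of tRNA genes that also reaches Fcgr3, an Fc receptor for IgG, held 51 members among 202 cytosines of the table. Its mean level was 7.27%, with 6.45% in library 4 and 8.84% in library 8 as the extremes. By nearest gene, the 14 members at the glutamate tRNA gene n-TEctc5 averaged 4.46%, the 19 at the leucine tRNA gene n-TLcag6 9.29%, and the 5 at the glycine tRNA gene n-TGgcc12 18.7%. The 6 members nearest n-TEctc7, up to 1348 bp away, averaged 2.09%, and the 6 nearest n-TEctc8, up to 1355 bp away, 3.66%. Only 8 members lay inside a tRNA gene, all in n-TLcag6, and those at n-TEctc5 lay up to 171 bp from it. The 151 cytosines of this span below the depth limit were as low, at 5.06%.

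By contrast 35 members in 5 regions of chr8:123549989-123612892, each 516 to 694 bp from a 5S ribosomal RNA gene or the 5S pseudogene Rn5s-ps1, averaged 52.3%, and their cytosines lay between 43.2 and 60.6%. None of these members fell inside a 5S gene of the annotation. Libraries 1 to 10 were at 48.6, 53.6, 50.4, 58.4, 50.1, 54.0, 50.4, 57.4, 49.7 and 51.6%. The means of the 5 regions were 50.8, 52.3, 51.1, 55.5 and 52.3%, closer to each other than the libraries were. The range over libraries reached 19.96 points in the region beside Rn5s-ps1 (44.8 to 64.8%) and 16.1 points in the one beside n-R5s107 (44.7 to 60.8%). In the 5 regions in order, the highest library was 8, 4, 8, 6 and 4, and the lowest was 3, 10, 9, 1 and 3.

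Another small RNA gene, Rny3, which encodes a Y RNA of the Ro particle, was 3346 bp from chr6:47771938-47778278. Its 12 members averaged 11056 reads and 12.5%. They fell into 5 members of 1.65 to 16.96% and 7 of 7.21 to 28.9% about 6 kb away, the latter with 10539 to 20908 reads.

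The other named regions under 20% lay in or at genes, except the region listed last here. The 5 members in Trappc9, a subunit of a vesicle trafficking complex, were at 1.37% on average, the lowest of the 71 regions with 5 or more members. Gm40371 followed with 2.47%, described above, with a range over libraries of 1.06 points, the narrowest of the 71. The region of 14 members at the pseudogene Gm10060, 8 of them inside it and 6 from 5 to 31 bp outside, averaged 5.99%, and its libraries ran from 3.12% in library 1 to 8.03% in library 10. At chr17:6476216-6476671, 15520 bp from the pseudogene Ppp1r2-ps5, 9 members averaged 6.68%, and 1 of them reached 26.5%.

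Most large regions had middle levels with wide differences between neighbouring cytosines. The gene of the centrin-binding protein Sfi1 held 55 members in 3 regions near the start of chromosome 11. The largest, chr11:3185511-3193628, had 42 members and a mean of 56.0%, from 52.0% in library 7 to 60.2% in library 8. Weighted by reads it was at 44.4%. Among members of 29.7 to 78.8% it held 1 CpG at 3193558 and 3193559 with 4.66% on the plus and 3.76% on the minus strand, in which the libraries lay at 3.71 to 5.77% and 3.19 to 4.26%. The nearest CpGs to both sides, 10 and 25 bp away, were at 39.1 and 42.9% on the plus strand. Both strands were low here. Of the 3 lowest cytosines of the chromosome 2 region, 98662602 also had a partner of low level (15.2%), and the other 2 had partners above 60%. A second CpG of this kind lay in chr4:133918166-133918371, 30369 bp from the kinase gene Rps6ka1. That region had 15 members with a mean of 64.8%, but the CpG at 133918304 and 133918305 had 1.58 and 1.09%. The CpG 2 bp before it was at 51.3 and 55.2%, and the one 3 bp after it at 65.2 and 68.0%.

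Over the 71 regions of 5 or more members the range between the cytosines of a region was 27.2 points in the median region and 89.1 points in the widest, and 11 regions passed 50 points. The range of the region's mean over libraries was 7.65 points in the median region. In 65 of the 71 regions the range between the pooled levels of single cytosines was wider than the range of the region's mean over libraries. The 6 exceptions were the regions nearest Rn5s-ps1, n-R5s107 and n-R5s115, those in Cdh22 and Tmem267, and one near Gm35867 on chromosome 19.

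Of the 71 regions 3 were over 80%, a further 56 at 20 to 80%, and 12 under 20%. The highest was chr3:114278682-114278779, 57926 bp from the collagen gene Col11a1, with 7 members at 86.6% (84.4 to 89.7% over libraries). Next came chr3:22730432-22730553 with 84.6%, and chr15:7975264-7975381, in Wdr70 at the pseudogene Rpl19-ps6, with 81.1% (77.2 to 86.7%). The heparan sulfate proteoglycan gene Gpc5 held 7 members at 79.1%. A region 1829 bp from the pseudogene Gm18262 was at 77.1%. The ranges over libraries of these 5 regions overlapped between neighbours in the order.

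The deep regions of middle level also include members in Chl1, a neural cell adhesion gene, with 6 members at 55.5% and 21235 reads. In it the CpG at 103649167 had 69.6% on the plus strand with 5445 reads and 32.5% on the minus strand with 33418 reads. Gm6634 held 3 members at 56.8%, and Pisd-ps1, a transcribed pseudogene, held 1 member at 74.96%. On chromosome 5, 3 regions were at 70.3% (18 members, near Gm17019), 62.6% (17 members, in the transcribed pseudogene Speer4cos) and 33.9% (3 members, near Gm30613). Further large regions were at 59.4% (18 members, chr1:140967261-140967754) and 28.4% (15 members, 45262 bp from the histamine receptor gene Hrh1).

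Differences between the libraries were tested at each autosomal cytosine of 5 to 95% with a chi-square test of homogeneity (9 degrees of freedom, p-values adjusted after Benjamini and Hochberg over all of these cytosines). Taking the counts as deposited, 25.4% of 1755343 cytosines were called at an adjusted p under 0.05, and 762 of 1349 members (56.5%) were. Halving all counts, as if each fragment had been counted in both of its mates, gave calls at 0.0867% of all cytosines and at 62 members (4.6%). Such counting of every fragment would make all counts even. Methylated and unmethylated counts were both even in 27.6% at the tested members and in 36.0% at the other tested cytosines. Halving is thus a limiting case, and the share of fragments counted in both mates was not tested. With the halved counts, 22 of the 60 cytosines tested in the chromosome 2 region were called, and members of 9 regions in all. Members were chosen for depth, and depth lets this test find smaller differences, so the shares of members and of all cytosines are not set against each other. The range over the 10 libraries was 12.6 points at the median member and 28.1 points at the median of the other cytosines. Counting error alone gave an SD of 2.70 and 7.31 points. The SD beyond counting error was 2.94 points at the median member and 5.01 points at the other cytosines, or 1.57 and 0 points with halved counts. In the chromosome 2 region the range was 5.92 points and the SD beyond counting error 1.57 points. The labels number the samples and do not state whether embryos were pooled. How much of the spread between libraries lies between embryos and how much in the preparation of libraries cannot be told apart.

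The widest range over libraries among the 71 regions was 28.0 points, in Tmem267 beside the long noncoding RNA gene 3110070M22Rik on chromosome 13. Its 14 members averaged 76.3%. Libraries 1 to 10 were at 78.7, 78.6, 76.4, 78.0, 84.1, 80.5, 78.6, 56.1, 71.0 and 76.3%, so that library 8 stood apart. Wide ranges were also found in a region near 2310043L19Rik on chromosome 1, at 62.0% with a range of 15.4 points, and in the cadherin gene Cdh22, at 52.7% with a range of 15.2 points. The library that was lowest differed between these regions: library 8 in Tmem267, library 4 near 2310043L19Rik and library 1 in Cdh22 and beside Rn5s-ps1.

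The mean level of members moved with that of the other autosomal cytosines over the 10 libraries, with Pearson r = 0.951 (permutation p = 1.40e-04, adjusted over 6 relations 8.40e-04) and Spearman rho = 0.867 (permutation p = 0.00207, adjusted 0.0124). Without libraries 1 and 9, which were farthest from the median, r was 0.889. Against the total coverage of the library r was -0.714 (permutation p = 0.0216, adjusted 0.0433) and rho -0.673 (permutation p = 0.0388, adjusted 0.116). Without libraries 4 and 5 this r was -0.550, and leaving out library 4 alone gave -0.575 with an adjusted p of 0.209, so the relation with coverage rests on few libraries. The widest gap between neighbouring libraries was 24.1% of the range for the other autosomal cytosines and 24.2% for total coverage. Both fell just under the limit of 25%, set after the values were seen, past which libraries were taken as 2 sets. No values within sets were computed for these relations. The share of coverage on members split the libraries into 7 and 9, at 2.92% or less, and the other 8. Within these 8, r against the member level was 0.639 (exact permutation p = 0.132) and rho 0.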

How the data were processed

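RRBS was run on DNA of mouse embryos (embryonic day 7.5), with 10 labelled samples. No label states that the 10 libraries of the table are these 10 samples. The deposited table holds counts per CpG cytosine, per the file headers: coverage, methylated and unmethylated reads for 10 libraries. They are not normalized, with at least 10 reads in every library and the strands kept apart. Bismark, Trim Galore, methylKit and mm10 are named, without versions, per the submitters' processing notes. Not given in the sources used here: whether reads were deduplicated and how overlapping mates were counted. A T at a cytosine is counted as unmethylated whether it comes from bisulfite or from a copy with another base, and reads of many copies may be placed on 1 copy. At the 100 member values with a coverage of at least 100000, methylated counts lay within 0.5 reads of a level with 2 decimals in percent in 100, where 4.24% of arbitrary counts would, so counts of the deepest cytosines carry that rounding.

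Library totals were 94583116 to 127102232 reads counted at cytosines. The 30 columns of counts matched no sample, so no column was given a group, no group test was run, and no mean with SD is given. Wilson 95% intervals and the limit for a count of 0 (3 counts) cover counting error only. A level of a set is the mean over its cytosines of the pooled level. Genes are those of RefSeq for GRCm38.p6, used without strand, with distances to the nearest gene end.

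Members, regions and lists were chosen with earlier results of these data known. The regions named are the 10 with most members, the 10 deepest per member and, among those of 5 or more members, the 5 highest and 5 lowest levels and the 5 widest and 3 narrowest ranges over libraries. Single cytosines and CpGs outside the chromosome 2 region, the 5 regions at 5S genes and those near Tfpt, Yipf4 and Cflar were picked after their values were seen, as was the limit (a gap of over 25% of the range) at which libraries were taken as 2 sets. Correlations used 100000 permutations over 10 libraries and exact ones within sets, 2-sided. The chi-square code was tested on simulated data. Python 3.11.15, numpy 2.4.6, pandas 2.3.3, scipy 1.17.1 and matplotlib 3.10.9 were used. Alternatives were other depth limits, weights, strands, grouping distances, coverage minimums and halved counts, and each library left out.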

Additional observations from a re-analysis of the deposited data

Results flagged for a closer look

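In 37 sets of 10 library values the highest or lowest library was compared with its nearest neighbour by Dixon's ratio. The limit was its 95% critical value, which chance passes in about 1 of 20 sets that were not picked by these values. Some regions among the sets were named for the widest or narrowest range over libraries, so this rate does not hold for them. The Tmem267 region is among those named for the widest range. In 3 of the 37 sets the value passed, each in a single region. Library 8 was at 56.1% in the Tmem267 region of chromosome 13, where the other libraries lay between 71.0 and 84.1%. Library 1 was at 79.99% in the region chr3:22730432-22730553, below the other libraries at 83.8 to 86.8%. Library 1 was at 15.8% in the region near Rny3 on chromosome 6, above the other libraries at 10.96 to 13.3%. The cause was not tested.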

How the results depend on the processing

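The mean level of members, 50.2%, became 48.0% weighted by reads, 45.9% for the top 0.05% of rows, 49.2% for the top 0.2%, 51.2% on the minus strand and 51.6% as a mean over regions. All were above the 41.6% of the other cytosines, which rose to 43.3% with at least 20 reads in every library. Leaving out each library gave 50.1 to 50.4%. The count of 510 regions moved by less than 1.5 times when neighbours were joined within 1 or 50 kb. Halved counts, which hold less information by construction, gave 62 in place of 762 member calls and 1522 in place of 446471 calls at all autosomal cytosines, and leaving out a library gave 681 to 727 and 395265 to 401427. Read-weighted levels, which the chromosome 2 region dominates, lowered r against other autosomal cytosines to 0.499 (adjusted permutation p = 0.430), against total coverage to -0.610 and against the share of coverage to 0.292. Leaving out single libraries gave r of -0.868 to -0.575 against total coverage and 0.654 to 0.791 against the share of coverage, and 9 of 12 alternatives of each lost the call. For members outside the chromosome 2 region against that region, where library 10 stands apart, leaving out single libraries gave r of 0.367 to 0.730. The highest, without library 10, had an adjusted permutation p of 0.0464 among 6 relations and of 0.0954 among the 4 computed within sets of libraries, so its call depends on the family. Of the 30 named regions 8 had a read-weighted level that moved by more than the SD of the libraries, and 22 did not. With strands taken as different from 10 in place of 20 points, an alternative chosen after seeing the data, 18 in place of 11 CpGs with members on both strands differed. No paired analysis was possible because the columns carry only numbers from 1 to 10, which match no sample. The shallowest member had 111 reads in a library, and fragments counted more than once would make every interval too narrow.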

Other observations

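Past the same depth limit were 55 cytosines of chromosome X and 114 of chromosome Y, which were kept out of the values above. On the autosomes the number of members per chromosome ran from 16 on chromosome 18 to 158 on chromosome 1. Chromosome 6, which holds the low regions near LOC115490388, Gm40371 and Rny3, had the lowest mean member level, 34.4% over 130 members, and chromosome 3 the highest, 60.7% over 59 members.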
